A study of Mus musculus with 41 samples.

Results

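Gene expression in 10 mouse melanomas collected 63 to 163 days after doxycycline withdrawal was compared with that in 7 melanomas collected on days 6 and 9, out of 41 tumours in the whole series. These 17 tumours were taken by their labelled number of days off the drug, with no use of their measured values. The question was what changes after the first phase of tumour regression. The late group held 3 tumours of day 63, 2 of day 77, 1 of day 90, 2 of day 121, 1 of day 136 and 1 of day 163, and the earlier group held 4 tumours of day 6 and 3 of day 9. All of them carried the iBIP genotype, in which a mutant BRAF transgene is switched on by doxycycline. In this model, as background, the transgene acts in melanocytes that also lack the tumour suppressor Cdkn2a, so every tumour compared here shared that loss, while the labels themselves give only the strain name. Each tumour was a macrodissected frozen piece from which skin had been trimmed, and the drug had been left out of the drinking water of all 17. Neither regrowth nor a residual state is recorded for any late tumour, and no label ties each tumour to its own mouse, so the p-values below measure the spread between tumours, which may be partly technical.

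Interferons are cytokines that infected, dying or immune cells release, and cells that sense them switch on a shared set of genes. Type I interferon acts mainly through a complex that holds STAT2 and IRF9 and binds a short promoter element, and interferon gamma draws in T cells through chemokines such as Cxcl10. The targets include antiviral enzymes, GTPases that attack intracellular parasites, and the machinery that shows peptides to T cells. Nerve sheath cells and melanocytes share a neural crest origin, which is why genes of both lineages are read in melanoma.

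Expression is given as log2 intensity, after a pseudocount of 16 and quantile normalisation of the deposited values. A change is the mean of the 10 late tumours minus the average of the day 6 mean and the day 9 mean, on that log2 scale, with its standard error (SE) and the Benjamini-Hochberg adjusted p of limma. The pseudocount understates changes of dim genes. Of 18194 genes with a probe set of their own, 14319 passed the filter on low values and were tested. Of these, 4529 were called at an adjusted p under 0.05, which is 31.6%. Late tumours were higher for 2553 genes (17.8%) and lower for 1976 (13.8%). The median change over all genes tested was 0.04, and 303 called genes were at least 2-fold higher and 291 at least 2-fold lower. All 10 late values lay above all 7 earlier ones for 91 genes (0.636%) and below them for 143 (0.999%), and 141 of the latter were called.

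The arrays themselves differed between the groups, and this touches many of the counts below. Spike-in control probes put all day 6 arrays in one set, 8 late arrays (days 63 to 121) in a second set, and all day 9 arrays with the other 2 late arrays (days 136 and 163) in the third. Gapdh control probes at the 3′ end read higher than those at the 5′ end where RNA is shortened, and this Gapdh gap on the log2 scale averaged -0.091 ± 0.074 for day 6 (SD, n = 4). For day 9 it was 1.22 ± 1.01 (n = 3), and for days 63 to 163 it was 2.68 ± 1.44 (n = 10). It exceeded 2 in 8 late arrays and 1 day 9 array, and the late arrays with a small gap were those of 1 day 77 tumour (0.611) and 1 day 121 tumour (0.294). A fit that blocked on the spike-in set called 1994 genes, 1015 higher and 979 lower. The fit with the Gapdh gap as a covariate called 751, of which 273 were higher and 478 lower, and leaving out the 9 tumours with a gap over 2 called 1994, of which 950 were higher and 1044 lower. Counts of list members under these settings are to be read against these smaller totals. The group, the set and the gap can be told apart only in part, since day 6 shares no set with a late tumour, and values under these settings are given with the main groups of genes.

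The sequences shown first are promoter stretches of interferon-induced genes that were lower in the late tumours. They were picked because the interferon element can be read in them. The element was searched as GAAA, then any 2 bases, then GAAA, on both strands (so also as TTTC, any 2 bases, TTTC), in the 250 bases before each gene's start. Sequences and coordinates are RefSeq's on GRCm38.p6, read 5′ to 3′ on the gene's strand, with matches in capitals and overlapping matches merged into one run of capitals.
Cxcl10, chr5:92349063-92349132, minus strand: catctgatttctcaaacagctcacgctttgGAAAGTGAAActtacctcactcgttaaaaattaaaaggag
Oas1a, chr5:120907526-120907575, minus strand: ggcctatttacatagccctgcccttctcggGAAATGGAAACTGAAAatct
Rsad2, chr12:26456533-26456602, minus strand: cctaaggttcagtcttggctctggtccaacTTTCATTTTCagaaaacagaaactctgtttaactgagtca
Ifit1, chr19:34640755-34640843, plus strand: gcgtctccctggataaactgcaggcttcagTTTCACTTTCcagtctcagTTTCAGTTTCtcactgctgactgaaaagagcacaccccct
Bst2, chr8:71537557-71537632, minus strand: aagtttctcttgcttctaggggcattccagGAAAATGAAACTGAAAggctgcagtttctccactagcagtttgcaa
The first match of Cxcl10 began 213 bases before the start, that of Rsad2 120, that of Ifit1 104 and that of Oas1a 20. Of 27025 genes with a promoter, each counted once over all its starts, 3.46% held the element. Of the 11461 tested genes with a promoter, 3.12% did. Among called genes that were lower with no overlap, 19 of 109 with a promoter held it (17.4%), against 2 of 74 that were higher with no overlap (2.7%). The share over all called lower genes with a promoter was 4.83%. In the type I interferon list it was found in 8 of 16 genes with a promoter, and in the MHC class I list in 1 of 12. Of the 10 largest falls without overlap, 7 had a promoter and 3 held the element, while Irf7, Oasl2, Ms4a4b and Ms4a4c did not. A match is a run of letters and was not tested as a binding site.

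Interferon-induced antiviral genes were lower in the late tumours without exception among those measured. All 21 tested members of the type I interferon list fell, against 13.8% of all genes, with a median change of -1.75. Of these, 18 did not overlap between the groups, against 0.999% of all genes. Irf7, the transcription factor that amplifies the type I response, ranged from 6.19 to 7.44 in the late tumours with a median of 6.58. At day 6 it stood at 10.36, 9.38, 10.04 and 9.97, and at day 9 at 9.31, 10.30 and 10.25. Every late tumour was far below every earlier one. The change was -3.31 ± 0.35 (SE), a 9.94-fold lower level (limma adjusted p = 5.45e-08). In the 4 tumours still on the drug, called day 0, Irf7 averaged 7.94 ± 1.5 (SD).

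**Figure D1:**
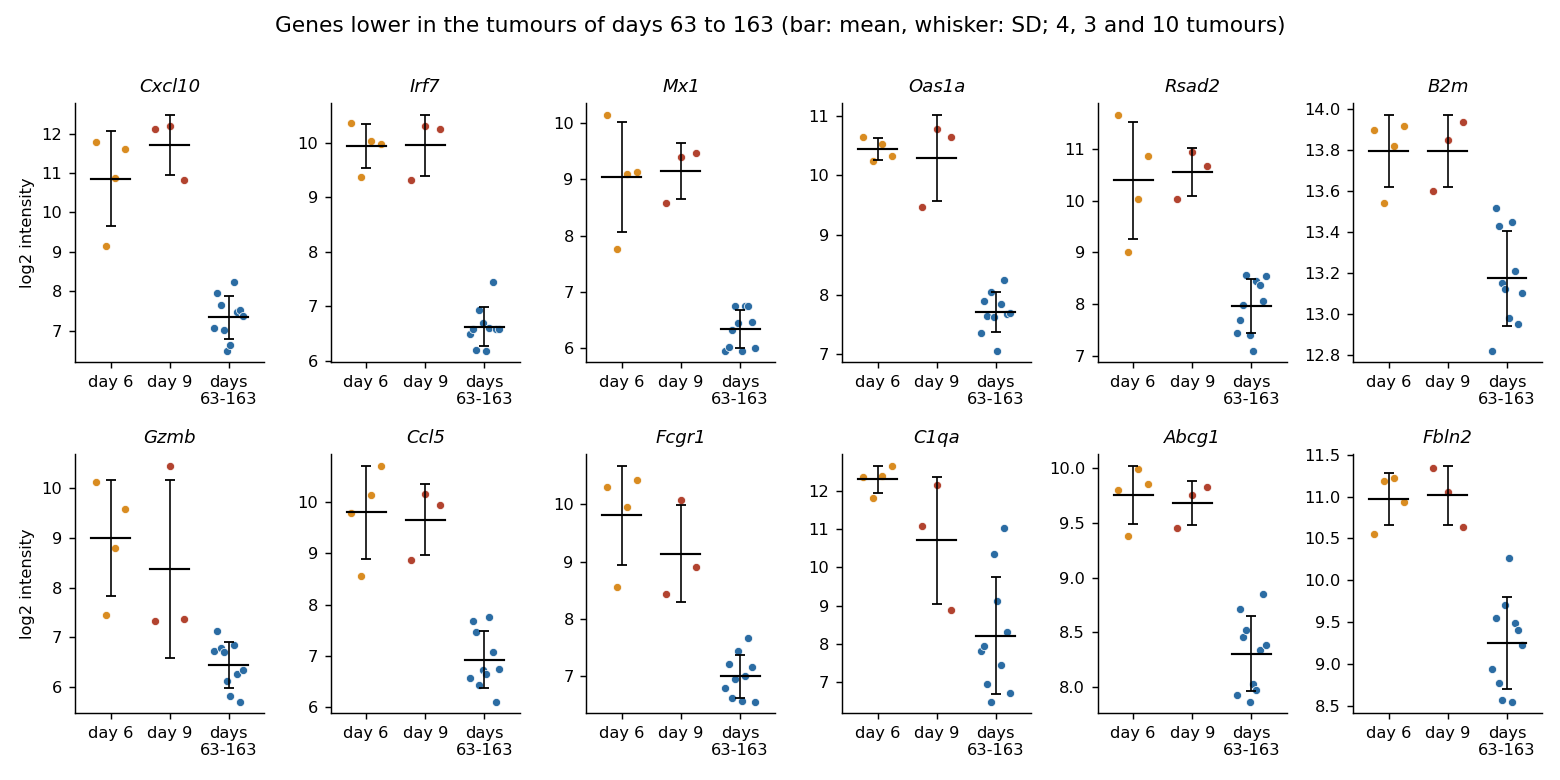
Log2 intensity per tumour of 12 genes lower in the late tumours, by day 6 (4 tumours), day 9 (3) and days 63 to 163 (10), with each gene on its own scale; bars are means and whiskers SD. The late tumours lie below all earlier ones in every panel except C1qa, where 3 late tumours overlap the day 9 range.

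Oas1a makes the short nucleotide that activates RNase L, and its late values ran from 7.06 to 8.25 with a median of 7.68. Day 6 tumours had 10.64, 10.24, 10.53 and 10.33, and day 9 tumours 9.46, 10.77 and 10.64, so that the groups were more than a log2 unit apart at their nearest points. The change was -2.66 ± 0.32 (adjusted p = 6.8e-07). Rsad2, which encodes viperin, spread more widely before the late phase, with 11.66, 9.01, 10.03 and 10.87 at day 6 and 10.04, 10.95 and 10.68 at day 9, against 7.10 to 8.57 later (median 8.02). Its late values lay close below the second day 6 tumour, which was the lowest earlier tumour for Rsad2, Mx1, Cxcl10, Cxcl11 and Ccl5. Rsad2 changed by -2.51 ± 0.44 (adjusted p = 9.21e-05), and this was the one gene of the 10 largest falls that lost its call under the spike-in block (-1.65, adjusted p = 0.0969). Oasl2 (-2.59) and Rtp4 (-2.36) fell with no overlap as well. Further list members, from the RNA sensors Ifih1 (-1.75) and Ddx58 (-1.18) to the deubiquitinase-like brake Usp18 (-2.38) and the transcription factor Stat2 (-1.20), were called lower too.

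The interferon-inducible GTPases fell in the same direction, with 12 of 12 tested members called lower, against 13.8% of all genes, and a median change of -2.03. Mx1, which blocks influenza-like viruses in the nucleus, was 5.96 to 6.76 in the late tumours (median 6.39), against 10.14, 7.77, 9.10 and 9.13 at day 6 and 8.57, 9.39 and 9.47 at day 9. All late tumours were below all earlier ones, by the narrowest margin against the second day 6 tumour, and Mx1 changed by -2.75 ± 0.41 (adjusted p = 1.29e-05). Mx2 changed by -1.29 ± 0.18 and its late values kept within 6.49 to 7.0. The immunity-related GTPases Iigp1 (-2.72), Igtp (-2.12) and Irgm1 (-1.89) and the guanylate-binding proteins Gbp6 (-2.65) and Gbp2 (-1.52) were lower as well. Only 3 members did not overlap between the groups, against 0.999% of all genes. In the other members of this family single late tumours reached the range of single earlier ones. In Ifi47, for example, 9 of 10 late tumours lay below the earlier range and the change was -1.98 ± 0.30.

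The interferon counts under the array settings were as follows. Under the spike-in block 17 of 21 type I genes and 12 of 12 GTPases were called lower, with medians of -1.70 and -2.55. With the Gapdh gap as a covariate the counts were 19 and 11, and without the 9 tumours of large gap they were 16 and 10. Within the third spike-in set, 2 late tumours against the 3 of day 9, all 21 and all 12 had a negative change (medians -1.71 and -2.31), and limma called none, with 20 and 10 at an unadjusted p under 0.05. Late tumours of days 63 and 77 and those of days 90 to 163 gave type I medians of -1.77 and -1.80, with 20 genes called in each.

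Peptide presentation on MHC class I fell as a whole group. All 14 tested members were called lower, against 13.8% of all genes, with a median of -1.14. Of these, 6 did not overlap, against 0.999% of all genes. B2m, the light chain of every class I molecule, was 12.82 to 13.52 in the late tumours (median 13.13), and 13.90, 13.54, 13.82, 13.92, 13.60, 13.85 and 13.94 over the 4 day 6 and then the 3 day 9 tumours. The step was small but complete, since no late tumour reached any earlier one, and the change was -0.63 ± 0.10 (adjusted p = 5.05e-05). The heavy chain H2-D1 changed by -0.83 ± 0.12, again with no overlap. Larger changes belonged to the immunoproteasome subunits Psmb9 (-1.83), Psmb8 (-1.74) and Psmb10 (-1.69), which replace the constitutive subunits under interferon gamma, and to the peptide transporters Tap1 (-1.70) and Tap2 (-1.36). Psmb10 lay between 8.98 and 9.78 in the late tumours and between 9.85 and 11.51 earlier. Called members numbered 13 under the block, 12 with the gap covariate and 13 without the tumours of large gap. MHC class II members were called lower in 7 of 12 cases, and in 8 under the block, 5 with the covariate and 2 without the tumours of large gap. They were led by the invariant chain Cd74 (-1.80 ± 0.45), which ranged widely from 8.47 to 12.40 in the late tumours. Without the tumours of large gap Cd74 was not called (-1.69, adjusted p = 0.0767). For Cd74, 7 of 10 late tumours lay below the earlier range, and against day 9 alone its change of -1.41 was not called (adjusted p = 0.134).

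The chemokines that draw activated T cells through CXCR3 showed some of the largest changes on the array. Cxcl10 had the largest fall of all called genes without overlap. Its late values ran from 6.49 to 8.23 with a median of 7.42, while day 6 tumours had 11.79, 9.14, 10.86 and 11.61 and day 9 tumours 12.12, 12.18 and 10.83. The highest late tumour was still below the lowest earlier one, and the change of -3.94 ± 0.42 was a 15.4-fold difference (adjusted p = 7.3e-08). At day 0 the mean was 8.70 ± 1.57 (SD, n = 4), between the early and late withdrawal groups. Cxcl9 changed by -3.66 ± 0.67, with 9 of 10 late tumours below the earlier range, and Cxcl11 by -3.22 ± 0.53, with all 10 below it. In the separate list of CC and CXC chemokines, 5 of 19 tested members were called lower and 2 higher, against 13.8% and 17.8% of all genes. The monocyte attractants Ccl2 (-1.72), Ccl7 (-1.22) and Ccl8 (-1.57) fell, while Cxcl12 (1.37) and Cxcl13 (1.62) rose. For these 19 the block called 2 lower, the covariate 2 and the fit without the tumours of large gap 1, with none higher. The medians were -0.165, 0.177 and 0.085, against -0.386 as reported. The ligand Cd274, known as PD-L1, fell by 1.43 on the log2 scale. Of the 13 tested CXCR3 chemokines and checkpoint genes 6 were called lower, none higher and 7 not called. The block called 9 of the 13 lower, the covariate 5 and the fit without the tumours of large gap 4. Their medians were -1.44, -0.745 and -0.765, against -0.556 as reported.

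Cytotoxic lymphocyte genes were lower, while the core T cell receptor genes were not called. Of 22 tested T and NK cell genes, 14 were called lower and 1 higher, against 13.8% and 17.8% of all genes, with a median of -0.88. The block called 14 lower (median -1.51), the gap covariate 6 (median -1.10) and the fit without the tumours of large gap 4 (median -0.99), with 21 of 22 changes negative under each. Gzmb, the protease that killer cells inject into targets, was 5.71 to 7.13 in the late tumours (median 6.53), against 10.12, 7.44, 8.80 and 9.58 at day 6 and 7.32, 10.44 and 7.37 at day 9. The late tumours were all lower, although 2 day 9 tumours and 1 day 6 tumour came within a log2 unit of them, and the change was -2.24 ± 0.44 (adjusted p = 0.000269). Ccl5, secreted by the same cells, changed by -2.82 ± 0.43 and did not overlap. Also lower were Gzma (-1.64), Prf1 (-1.19), Ifng (-1.07), the killer receptors Klrk1 (-1.84) and Ncr1 (-0.86), and the CD8 chains Cd8a (-1.02) and Cd8b1 (-0.92). The change of Cd3e was -0.01 (adjusted p = 0.947), at a level near the median of all genes in each group, that of Cd3g -0.57 and that of Cd4 -0.27, none of them called. The mean level over the whole list was 6.77 to 7.73 at day 6, 6.63 to 7.85 at day 9 and 5.95 to 7.15 in the late tumours, so it overlapped. In bulk tumour RNA, fewer cells of a type and less RNA per cell cannot be told apart.

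Macrophage genes moved in part. Among 27 tested members 13 were called lower and 1 higher, against 13.8% and 17.8% of all genes. The higher one was Lyve1, which also marks lymphatic vessels. The block called 15 lower, the covariate 6 and the fit without the tumours of large gap 5, with medians of -1.29, -0.59 and -0.60 against -0.89 as reported. Fcgr1, the high-affinity IgG receptor and itself an interferon target, lay between 6.55 and 7.67 in the late tumours (median 6.97). Day 6 tumours had 10.31, 8.55, 9.96 and 10.42 and day 9 tumours 8.43, 10.08 and 8.91, so that no late tumour overlapped them. Its change of -2.48 ± 0.30 (adjusted p = 6.98e-07) was called under the block (-2.84), with the gap covariate (-2.03) and without the tumours of large gap (-1.98). C1qa, a subunit of the first complement component, changed more (-3.29 ± 0.48) but less evenly, from 6.49 to 11.02 in the late tumours with a median of 7.88. The highest late values, 11.02 and 10.35, were those of the tumours whose Gapdh gap was small, and the lowest day 9 value, 8.89, was that of the day 9 tumour whose gap was large. With the gap as a covariate the change of C1qa was -1.05 (adjusted p = 0.0535), and without the tumours of large gap it was -1.27 (adjusted p = 0.0435). Its partners C1qb (-1.88) and C1qc (-1.70) stayed called under both settings. Csf1r, the lineage receptor, changed by -0.54 and stayed at the 98.8th percentile of genes in the late tumours, while Adgre1 (-0.69), Cx3cr1 (0.12) and Mrc1 (-0.12) were not called. Cd68 changed by -1.19.

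**Figure D2:**
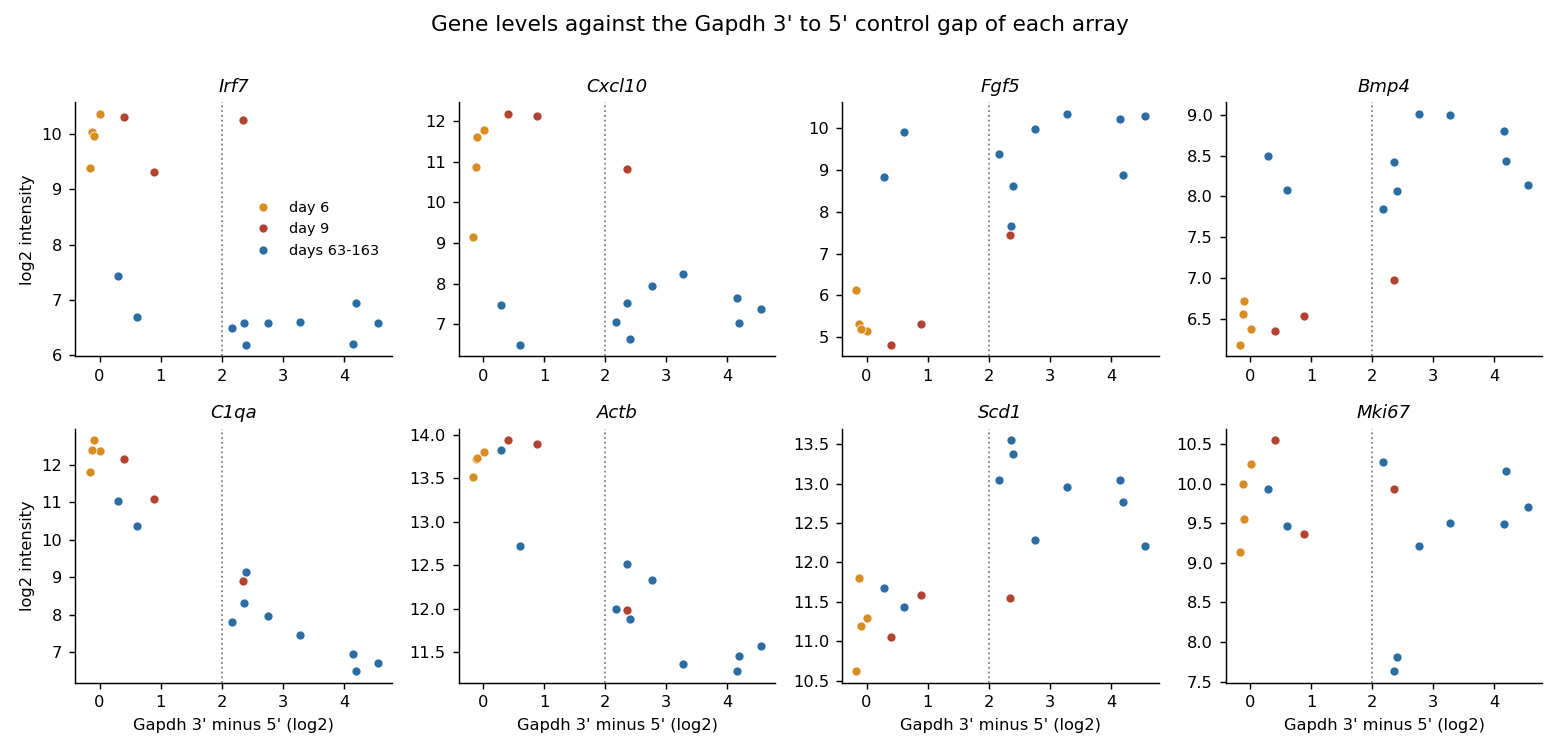
Log2 intensity of 8 genes in each tumour (vertical axis) against the Gapdh 3′ minus 5′ gap of its array (horizontal axis, log2; dotted line at 2), coloured by day 6, day 9 and days 63 to 163. Irf7, Cxcl10, Fgf5 and Bmp4 separate the late tumours from the earlier ones, but only 1 earlier tumour, of day 9, has a gap over 2. Its Fgf5 value is 7.45 at a gap of 2.35, against 7.66 at 2.36 in the day 136 tumour. C1qa and Actb decline along the gap, and the 2 late tumours with a small gap have Scd1 values within the earlier range.

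Lysosomal genes fell in 13 of 22 cases, against 13.8% of all genes, with none higher and a median of -0.43. The block called 9 lower, the covariate 5 and the fit without the tumours of large gap 9. Npc2, which hands cholesterol out of the lysosome, was 12.04 to 12.95 in the late tumours (median 12.63) and 13.15 to 13.49 in the earlier ones. The groups did not overlap, the change was -0.71 ± 0.09 (adjusted p = 2.06e-06), and it was called under the block, the covariate and without the tumours of large gap. Ctsz (-1.01) and Ctss (-0.83), proteases of macrophages and other phagocytes, were lower too. The cholesterol exporter Abcg1, a target of the sterol receptor LXR, was 7.87 to 8.85 late (median 8.36). Day 6 tumours had 9.80, 9.38, 9.99 and 9.85 and day 9 tumours 9.45, 9.75 and 9.83, all of them above every late tumour. Abcg1 changed by -1.41 ± 0.18 (adjusted p = 1.67e-06). Apoe, another LXR target, changed by -0.61 ± 0.27 (adjusted p = 0.0847), and the day 6 comparison alone called it (-1.06, adjusted p = 0.013).

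Among genes whose groups did not overlap, the largest rise belonged to a growth factor that was dim before. Fgf5, a secreted FGF known for ending the hair growth phase, ranged from 7.66 to 10.33 in the late tumours with a median of 9.64. Day 6 tumours had 5.14, 6.13, 5.31 and 5.21, and day 9 tumours 5.32, 4.82 and 7.45. All late tumours were higher, but the third day 9 tumour came within a log2 unit of the lowest late one, the day 136 tumour. The change of 3.75 ± 0.43 was a 13.4-fold rise (adjusted p = 3.74e-07), and the day 0 mean was 5.38 ± 0.67. The same day 9 tumour, whose gap was large, also held the highest earlier value for Cyp2f2, Aldh1a1, Enpep, Prdm8, Bmper, Bmp4 and Timp4.

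**Figure D3:**
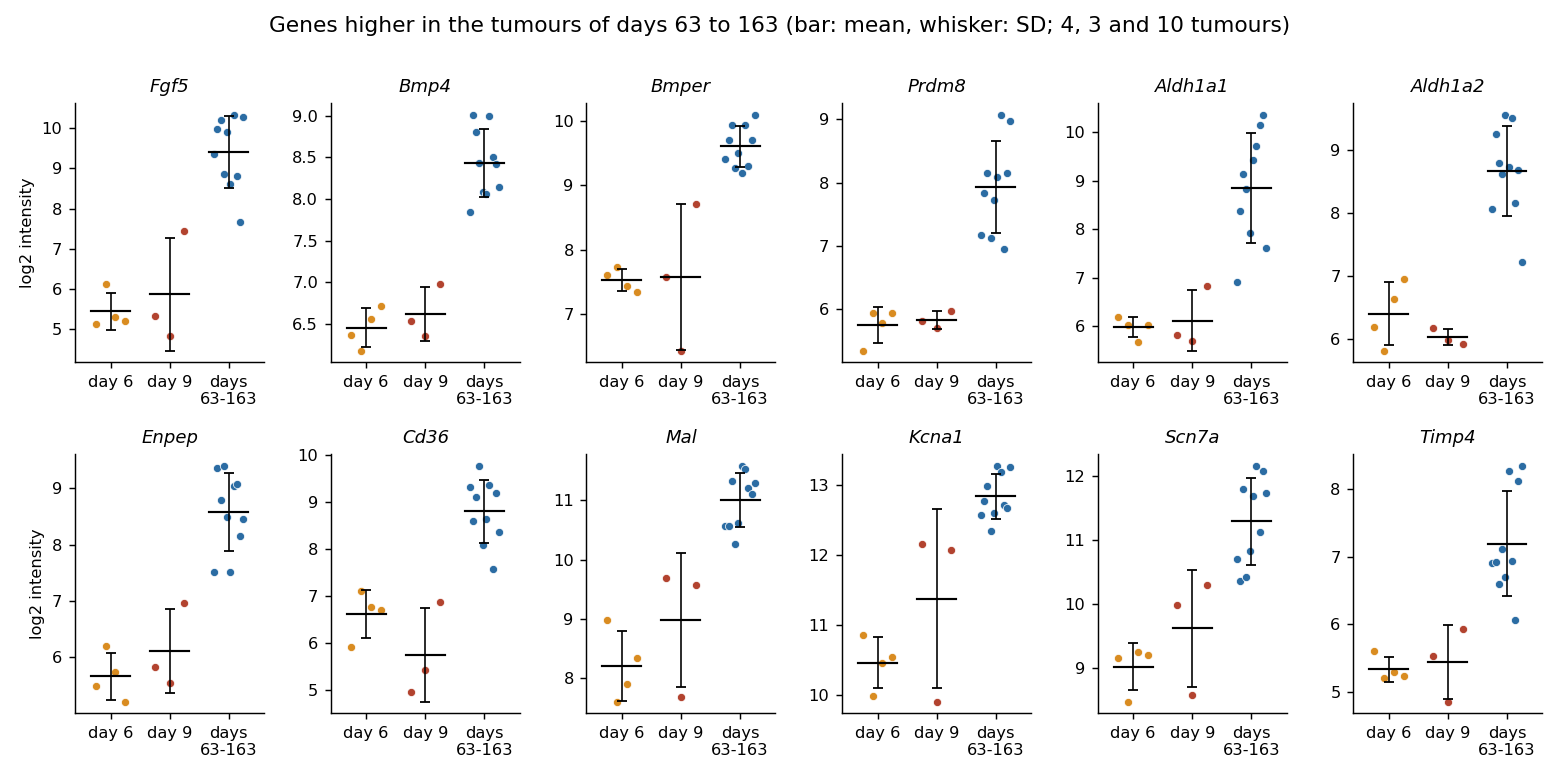
Log2 intensity per tumour of 12 genes higher in the late tumours, by day 6 (4 tumours), day 9 (3) and days 63 to 163 (10), with each gene on its own scale; bars are means and whiskers SD. No late tumour overlaps an earlier one in any panel, and the nearest approach in the Fgf5 panel is the day 9 tumour at 7.45.

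Among signalling genes, Bmp4, a ligand of the TGF-beta superfamily, was 7.85 to 9.01 late (median 8.42), against 6.37, 6.18, 6.56 and 6.72 at day 6 and 6.53, 6.35 and 6.98 at day 9. The 2 ranges were clearly separate, and the change was 1.89 ± 0.25 (adjusted p = 3.83e-06). Bmper, a secreted BMP-binding protein, rose by 2.06 ± 0.26, with late values from 9.19 to 10.09 and earlier ones from 6.43 to 8.70. In the BMP and TGF-beta list, 4 of 23 genes were called higher and 3 lower, close to the background, and the lower ones were Inhba (-1.28), Tgfb1 (-1.25) and Bmp2 (-0.95). Wnt pathway genes were called higher in 8 of 24 cases and lower in 3, against 17.8% and 13.8% of all genes. The higher ones included the secreted binders or modulators Sfrp2 (1.70), Sfrp4 (1.30), Frzb (1.13), Dkk2 (1.02) and Sfrp5 (1.01), together with the agonist Rspo1 (1.54). The inhibitor Wif1 (-1.51) and the receptor Fzd2 (-1.46) went the other way. The spike-in block left 1 Wnt gene called higher and 1 lower, and the gap covariate 1 higher. Without the tumours of large gap 3 were called higher and 1 lower. Rspo1 was not called under the block (1.15, adjusted p = 0.127) or with the covariate (1.35, adjusted p = 0.075), but was without the tumours of large gap (2.13, adjusted p = 0.0042).

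Enzymes and surface proteins made up most of the other large rises. Aldh1a1 and Aldh1a2, which make retinoic acid, changed by 2.80 ± 0.36 and 2.44 ± 0.36 (adjusted p = 1.99e-06 and 1.16e-05). Aldh1a1 was 6.91 to 10.36 late (median 8.98), against 6.18, 6.03, 5.68 and 6.03 at day 6 and 5.82, 5.70 and 6.83 at day 9, so the lowest late tumour lay just above the highest earlier one. Aldh1a2 kept a wider margin, with 7.22 to 9.56 late and 5.82 to 6.96 earlier. Cyp2f2, a cytochrome P450 enzyme, rose by 3.26 ± 0.37, and it was one of 3 named genes, with Prdm8 and Timp4, that were called under every alternative run for this comparison. Enpep, the aminopeptidase that trims angiotensin, rose by 2.70 ± 0.37, and Ecel1, an endothelin-converting enzyme relative of neurons, by 2.62 ± 0.39 with a late spread of 7.07 to 11.57. Cd36, a fatty acid receptor of fat, endothelial and phagocytic cells, was 7.56 to 9.76 late and 4.96 to 7.11 earlier. It rose by 2.61 ± 0.40, but missed the threshold without the tumours of large gap (1.91, adjusted p = 0.0585). Prdm8, a chromatin regulator of neurons, rose by 2.13 ± 0.24 from values of 5.35 to 5.98 to values of 6.95 to 9.07. The protease inhibitor Timp4 rose by 1.81 ± 0.25.

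Several genes of the nerve sheath rose. Compact myelin genes were called higher in 7 of 10 cases and lower in none, against 17.8% of all genes called higher. Mal, a membrane protein of myelin and some epithelia, was 10.27 to 11.58 late (median 11.15). Day 6 tumours had 8.98, 7.61, 7.91 and 8.34 and day 9 tumours 9.69, 7.68 and 9.57, all of them below every late tumour. Its change was 2.41 ± 0.46 (adjusted p = 0.000221) and its day 0 mean 5.74 ± 0.77. Mbp, the myelin basic protein, changed by 2.91 ± 0.65 and ranged from 8.83 to 11.88 late, with 8 of 10 tumours above the earlier range. Pmp22 (0.61), Cnp (0.70) and Egr2 (1.09), the transcription factor that drives myelination, were smaller but called. In the Schwann cell and nerve list 6 of 18 genes were called higher, against 17.8% of all genes. The median change was 0.81 against day 6 and 0.05 against day 9. The block called 3 higher, the covariate 0 (4 at an unadjusted p under 0.05) and the fit without the tumours of large gap 1. In this list 2 genes did not overlap, against 0.636% of all genes. They were the potassium channel Kcna1 (1.93 ± 0.48) and the sodium channel Scn7a (1.97 ± 0.38). With the covariate limma called neither Kcna1 (1.73, adjusted p = 0.121) nor Scn7a (1.65, adjusted p = 0.0573). Without the tumours of large gap Kcna1 was not called either (1.92, adjusted p = 0.164). Kcna1 was at 12.35 to 13.28 late, 10.86, 9.98, 10.45 and 10.54 at day 6 and 12.16, 9.90 and 12.07 at day 9, so that 2 day 9 tumours lay just below the late range. Gfap rose by 1.54 ± 0.44 with a late median of 6.97 and a maximum of 10.78 in the day 136 tumour. Against day 9 alone Gfap (1.36, adjusted p = 0.139) and Pmp22 (0.55, adjusted p = 0.165) were not called. The defining gene Prx had no probe set of its own here. Under the block 3 of 10 myelin genes were called higher and 9 of 10 changes were positive, with a median of 0.57 against 0.55 as reported. With the covariate 1 was called and the median was 0.06. Without the tumours of large gap limma called none (2 higher and 1 lower at an unadjusted p under 0.05), and the median change was -0.03. Under that last setting Mbp still differed by 2.76 and Scn7a by 1.83, neither called, while Pmp22 differed by 0.02.

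Melanocyte genes were mostly not called. Of 16 tested, only Ednrb, the endothelin receptor of the lineage, was called, against 31.6% of all genes. Ednrb was at 8.12 to 9.43 late (median 8.36). Earlier tumours had 7.09, 7.38, 6.42 and 7.66 at day 6 and 7.94, 6.60 and 8.17 at day 9, and 9 of 10 late ones were above them all. The change of 1.16 ± 0.28 was not called under the block (1.06, adjusted p = 0.102), with the covariate (0.89, adjusted p = 0.163) or without the tumours of large gap (1.43, adjusted p = 0.0508). Sox10, the lineage transcription factor, was bright throughout (9.22 to 10.86 late, 8.30 to 10.95 earlier), and its change of 0.24 ± 0.22 was not called. Against day 6 alone Sox10 differed by 0.83 (adjusted p = 0.0159) and against day 9 by -0.35 (adjusted p = 0.475). Mitf (0.40, adjusted p = 0.191), Dct (0.67, adjusted p = 0.1) and Pmel (0.06, adjusted p = 0.687) were not called, and the pigment genes Pmel, Dct and Mlana had group medians between the 23.6th and 42.5th percentile of genes.

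Of the MAPK output, the transcription that BRAF drives, the feedback genes Dusp6, Spry4, Etv4 and Spred3 were not called between these time points, while the ERK phosphatases Dusp4 (-1.06) and Dusp5 (-0.64) were called lower. Dusp6, the ERK phosphatase, was 9.28 to 9.90 late, 10.15, 9.43, 10.01 and 10.11 at day 6 and 9.66, 10.64 and 9.29 at day 9, after a day 0 mean of 11.08 ± 0.21 (SD, n = 4). The late and earlier values overlapped, and the change was -0.25 ± 0.17 (adjusted p = 0.279). Spry4 (0.01, adjusted p = 0.965), Etv4 (-0.23, adjusted p = 0.195) and Spred3 (-0.18, adjusted p = 0.408) were not called either, with day 0 means of 7.78, 8.22 and 8.04 and late means of 6.57, 6.76 and 5.96. Of 27 tested genes 8 were called lower and 1 higher, against 13.8% and 17.8% of all genes. Beside Dusp4 and Dusp5 the lower ones were Mmp1a (-2.70), Hmga2 (-1.71), Plaur (-1.22), Junb (-1.10), Ccnd1 (-1.04) and Fosl1 (-0.90). Under the block 0 were called lower by limma (4 at an unadjusted p under 0.05) and 2 higher, with 13 of 27 changes negative. The covariate called 1 lower and the fit without the tumours of large gap 3. Cyclin D1 (Ccnd1) was 9.55 to 11.08 late (median 10.48) and 11.57, 10.75, 11.91, 11.36, 11.14, 12.35 and 10.90 over the day 6 and day 9 tumours in turn, so 9 of 10 late tumours were lowest. Under the block Ccnd1 changed by -0.85 (adjusted p = 0.0549). Endogenous Braf rose by 0.27 ± 0.08 (adjusted p = 0.0159), a 1.2-fold change that was not called under the block or the covariate. The receptor Axl changed by -0.58 ± 0.12 (adjusted p = 0.000414), but was not called against day 9 alone (-0.33, adjusted p = 0.174) or under the block (-0.49, adjusted p = 0.0675). Pdgfrb changed by -0.30 (adjusted p = 0.273) and Igf1 by 0.47 (adjusted p = 0.291).

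Many mitotic genes were lower. Of 25 tested, 15 were called lower, against 13.8% of all genes, and none higher, with a median of -0.63. Aurka, the spindle kinase, was 6.20 to 7.10 late (median 6.61), 7.81, 7.31, 7.72 and 7.59 at day 6 and 7.34, 8.12 and 6.82 at day 9. The third day 9 tumour fell within the late range and all other earlier tumours above it, and the change was -0.88 ± 0.16 (adjusted p = 0.000129). Plk1 changed by -0.98 ± 0.21. Mki67, the usual proliferation marker, changed by -0.53 ± 0.28 and was not called (adjusted p = 0.144), and it ranged from 7.63 to 10.28 among the late tumours, with the 2 lowest values at days 136 and 90. The tumours of days 63 and 77 gave 2 called mitotic genes with a median of -0.41, and those of days 90 to 163 gave 17 with a median of -0.93, although the difference between these late subgroups was not tested. Called members numbered 8 under the block and 1 with the gap covariate, with all 25 changes negative in both and medians of -0.86 and -0.38. Without the tumours of large gap 1 was called, 16 of 25 changes were negative and the median was -0.15.

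Glycolytic genes were called lower in 9 of 15 cases, against 13.8% of all genes, and none was called higher. The lower ones were led by Pfkl (-1.14 ± 0.20), Gapdh (-0.91), Pkm (-0.87) and Hk2 (-0.87). The block called 2 of the 15, the covariate 2 and the fit without the tumours of large gap 8. Pfkl kept its call under the block (-0.997), the covariate (-1.02) and without the tumours of large gap (-1.54), whereas Pkm was not called under the block (adjusted p = 0.0586) or with the covariate (adjusted p = 0.147). Actb changed by -1.39 ± 0.29 but by -0.21 (adjusted p = 0.704) with the gap covariate, and Gapdh by -0.26 (adjusted p = 0.307). That covariate is itself read from Gapdh control probes, so the Gapdh value under it is not an independent check. Of 10 reference genes 4 were called lower and 1 higher, with Actb and Gapdh among the lower ones. Collagen genes and their enzymes were lower in 9 of 24 cases, also against 13.8% of all genes. The lower ones included Col11a1 (-1.71), Col12a1 (-1.03) and P4ha1 (-0.97), while Col1a1 (-0.53), Col1a2 (-0.21) and Col3a1 (-0.07) were not called. Of the 24, the block called 1 lower, the covariate 3 and limma without the tumours of large gap 0 (6 at an unadjusted p under 0.05), with medians of -0.34, -0.36 and -0.28 against -0.50 as reported. Fbln2, a matrix glycoprotein of remodelling tissue, was 8.55 to 10.27 late (median 9.32), against 10.55, 11.18, 11.22 and 10.94 at day 6 and 11.34, 11.06 and 10.64 at day 9. No late tumour overlapped the earlier ones, and the change was -1.74 ± 0.20 (adjusted p = 3.74e-07). Fibronectin (Fn1, -1.24), N-cadherin (Cdh2, -1.26) and the imprinted gene Mest (-1.89) fell, whereas laminin alpha 2 (Lama2, 1.63) and dermatopontin (Dpt, 2.35) rose. Cdh2 was not called under the block (-0.71, adjusted p = 0.0855), nor Lama2 with the covariate (0.85, adjusted p = 0.157) or without the tumours of large gap (1.26, adjusted p = 0.0568), nor Fn1 with the covariate (-1.05, adjusted p = 0.0717). Dpt was not called under the block (1.41, adjusted p = 0.319), with the covariate (1.26, adjusted p = 0.379) or without the tumours of large gap (2.84, adjusted p = 0.0513). Dpt overlapped between the groups, with 1 day 6 tumour at 11.76, 1 day 9 tumour at 11.95 and late values from 9.00 to 12.55.

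**Figure D4:**
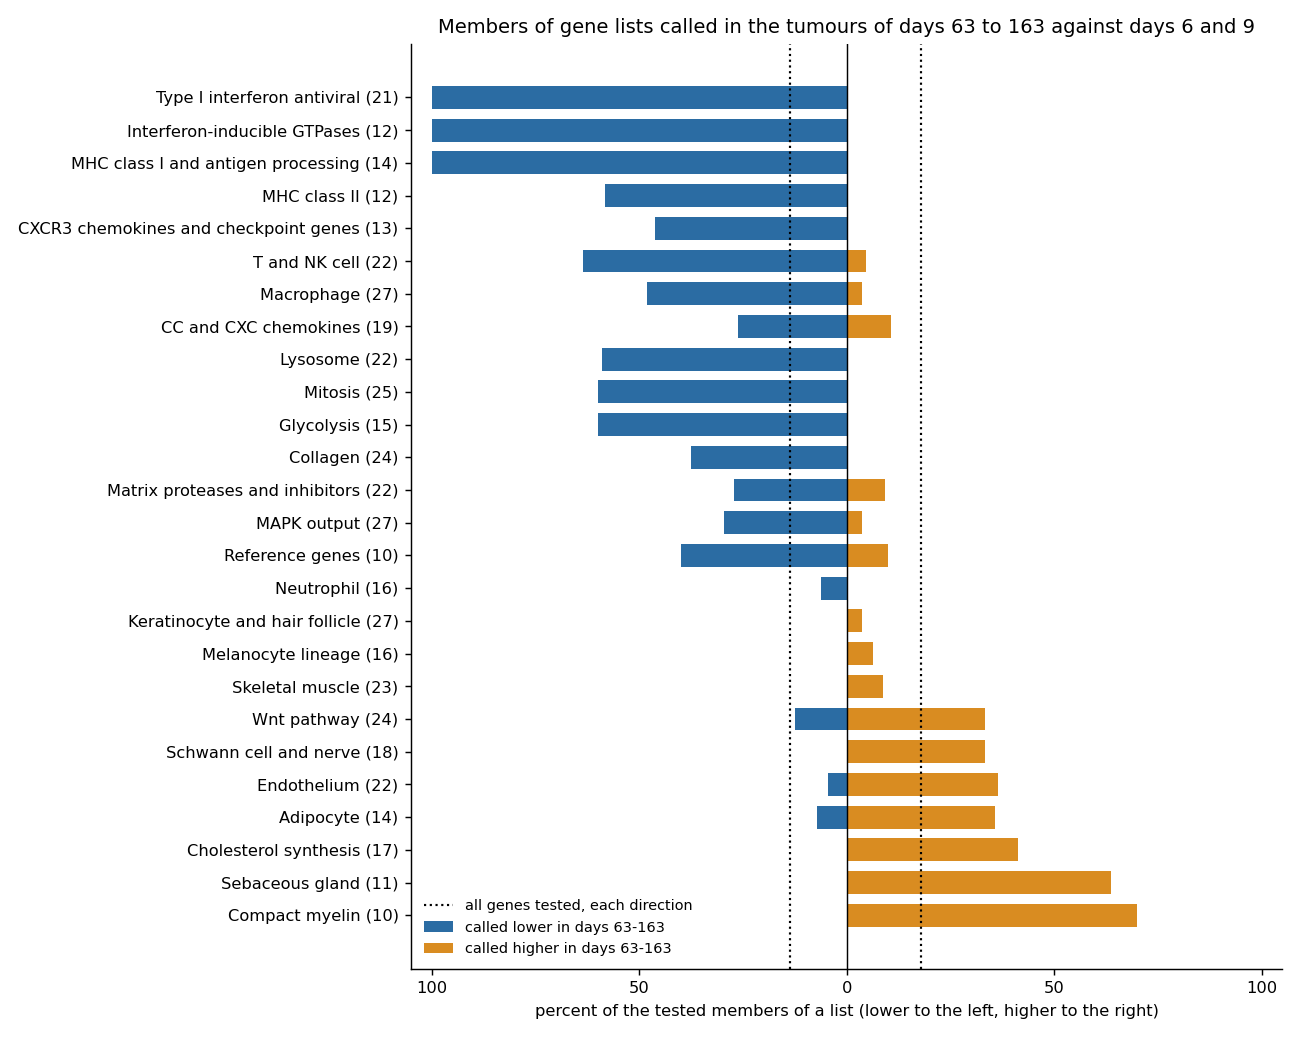
Percent of the tested members of 26 gene lists called lower (left) or higher (right) in the late tumours against days 6 and 9, with the number tested in brackets; dotted lines mark the share over all genes, 13.8% lower and 17.8% higher. The interferon and MHC class I lists are called lower throughout, and compact myelin and sebaceous genes have the largest shares called higher.

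Endothelial genes were called higher in 8 of 22 cases and lower in 1, Eng (-0.87), against 17.8% and 13.8% of all genes. The higher ones included the lymphatic receptors Lyve1 (1.87 ± 0.37) and Flt4 (1.25 ± 0.22) and the angiopoietin receptor Tek (1.25). The pan-endothelial markers Pecam1 (0.28, adjusted p = 0.447) and Cdh5 (0.47, adjusted p = 0.213) were not called. Under the block limma called 0 of the 22 higher (4 at an unadjusted p under 0.05) and 1 lower, and Lyve1 (1.54, adjusted p = 0.056) and Flt4 (0.79, adjusted p = 0.103) missed the threshold. The covariate called 2 higher and the fit without the tumours of large gap 3. Sebaceous gland genes were called higher in 7 of 11 cases, against 17.8% of all genes, with Krt79 (2.08), Far2 (2.10) and Scd1 (1.32). Cholesterol synthesis genes were called higher in 7 of 17, against the same share, with Msmo1 (1.25), Idi1 (1.12) and Hmgcs1 (1.04). The block called 3 sebaceous and 3 cholesterol synthesis genes higher. The covariate called 0 of either list (2 and 5 at an unadjusted p under 0.05), with medians of 0.85 and 0.49. Scd1, the enzyme that makes oleate, was 11.44 to 13.55 late and 10.62 to 11.80 earlier, and the late tumours within the earlier range were the pair with a small Gapdh gap. Without the tumours of large gap, the median change was -0.03 for sebaceous genes, with 1 called, and 0.01 for cholesterol synthesis genes, with 1 called. Fabp4, the fatty acid carrier of fat and small vessels, changed by 2.49 ± 0.56, while the adipocyte-defining Adipoq (0.54, adjusted p = 0.292) was not called and was at 4.57 to 8.35 late. Markers of skin and muscle in the samples spread widely within the groups. Although skin had been trimmed, the keratinocyte gene Krt14 was bright. It stood at the 99.5th percentile of genes at day 6, the 97.9th at day 9 and the 99.5th in the late tumours. For Krt5 these were 93.7, 86.1 and 93.8, and for Krt10 97.4, 91.9 and 93.6. The changes of Krt14 (-0.82), Krt5 (-0.56) and Krt10 (-0.65) were not called. The mean level of the keratinocyte list was 5.8 to 10.34 late and 7.05 to 9.59 earlier, with 1 of 27 members called higher. That of the skeletal muscle list was 5.57 to 9.14 late and 5.73 to 7.89 earlier, with 2 of 23 called higher. Both counts stand against 17.8% of all genes. Their part in the lipid and sebaceous results was not tested.

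The days 6 and 9 could be taken one at a time, with the same late tumours in both comparisons. Against day 6 alone 4460 genes were called (31.1%), and against day 9 alone 1098 (7.67%; 3.53% higher and 4.13% lower). Cxcl10 differed by -3.51 from day 6 and by -4.37 from day 9, Irf7 by -3.30 and -3.32, Fcgr1 by -2.82 and -2.14, Fgf5 by 3.96 and 3.54, and Bmp4 by 1.97 and 1.80, each called in both. Kcna1 was called against day 6 (2.39, adjusted p = 0.00207) and not against day 9 (1.47, adjusted p = 0.145). Day 9 differed from day 6 in 20 genes (0.14%; 0.0559% higher and 0.0838% lower), which included the mast cell tryptase Tpsb2 (-2.37), the innate receptor Tlr8 (-1.13) and the complement receptor C5ar1 (-0.85), and none of the genes named above. Days 6 and 9 also differ in spike-in set, so day and array set cannot be told apart between them.

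**Figure D5:**
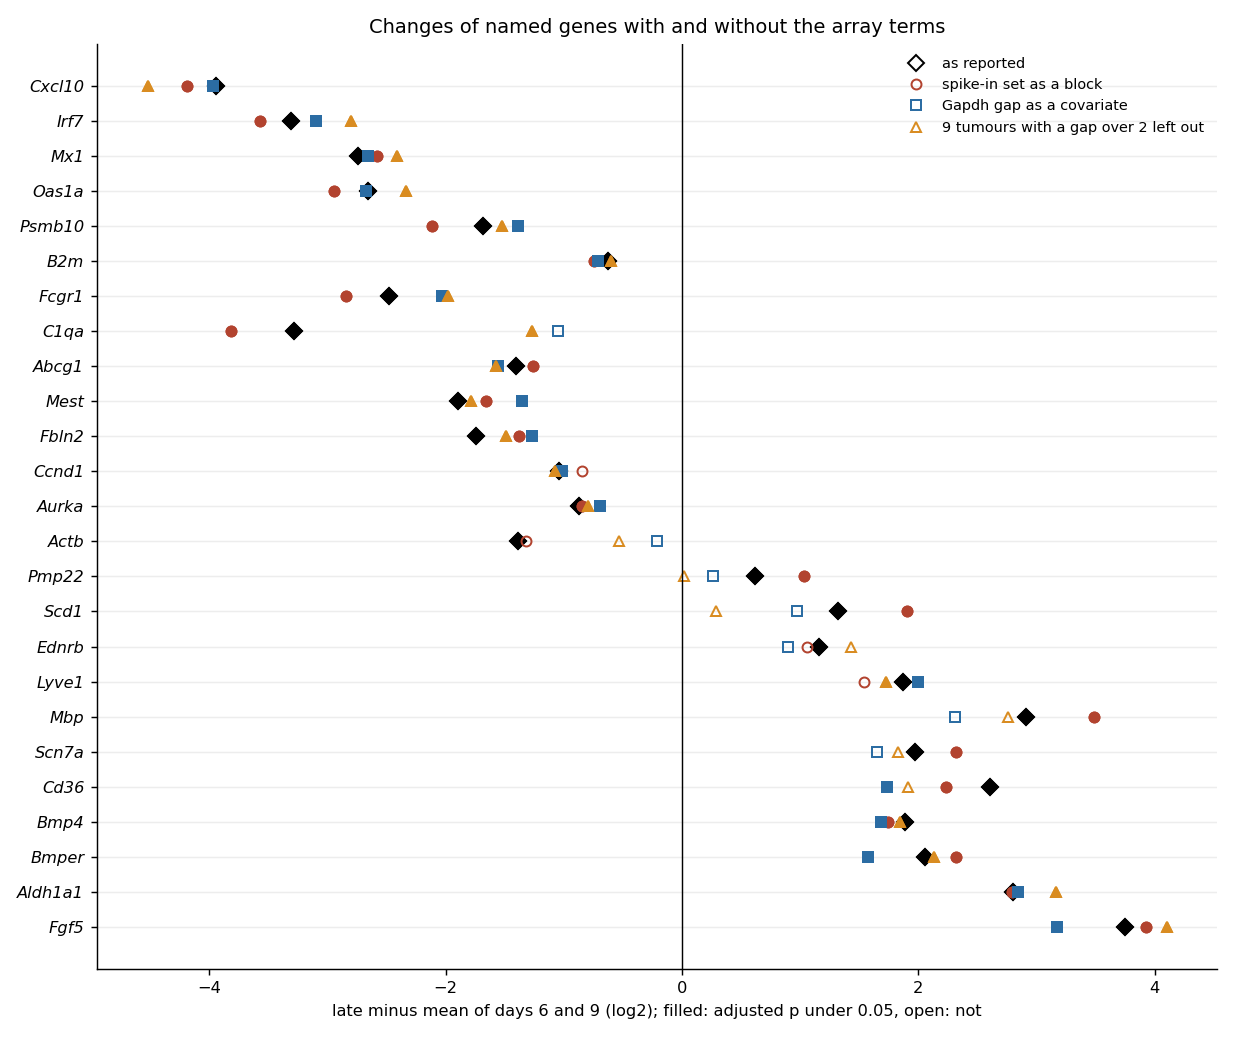
Change of 25 genes between the late tumours and days 6 and 9 (log2, horizontal axis) as reported and under 3 array settings; filled symbols are called at an adjusted p under 0.05. Interferon genes stay filled on the left under all settings shown, Actb and C1qa move towards 0 with the Gapdh gap as a covariate, and Fgf5, Aldh1a1, Bmper and Bmp4 stay filled on the right.

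Of 75 named genes that were called, 59 were still called with the spike-in block, 54 with the gap covariate, 53 without the tumours of large gap and 40 under each of these. With block and covariate together 34 were called, and 5 within the third spike-in set. Those 40 held Cxcl10, Irf7, Ccl5, Mx1, Oas1a, B2m, Gzmb and Fcgr1 among the genes that fell, and Fgf5, Cyp2f2, Aldh1a1, Enpep, Ecel1, Aldh1a2, Prdm8, Bmper, Bmp4 and Timp4 among those that rose. Of these, Mx1 (adjusted p = 0.0758), Gzmb (0.0615), Enpep (0.103), Aldh1a2 (0.0539) and Bmp4 (0.0806) missed the threshold with block and covariate together. The myelin, sebaceous and cholesterol synthesis genes among the 75 were outside the 40, while Npc2 and the cholesterol exporter Abcg1 were within them.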

How the data were processed

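Trizol RNA of 41 tumours was made into labelled cRNA for Affymetrix mouse arrays, per the labels' protocols. The table the authors deposited holds linear intensity values, with array medians of 51.8 to 57.4. The submitters' processing notes name MAS5 and RMA, and which of them made the table is not given in the sources used here. On the deposited intensities, log2(value + 16) was taken, followed by quantile normalisation. Of 45101 probe sets, 34958 named 1 gene in the platform annotation, 932 several and 9211 none. Each gene was read by its one-gene probe set of highest mean. Genes above the 40th percentile of the array in at least 3 arrays were tested.

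limma 3.58.1 in R 4.3.3 was fitted to 9 groups over all 41 arrays (32 residual degrees of freedom), with Benjamini-Hochberg adjustment over all 14319 genes and calls at 0.05. The fit was tested on simulated data. The members and gene lists were chosen with earlier results of these data known. Genes named in the text are some of those given by one rule: the 10 largest rises and falls without overlap, up to 3 called members per list by lowest p, and a set of genes taken whatever their values. List members outside it are given where a count is spelled out. Among the 41 arrays no pair held identical values. The number of arrays limits the precision. Alternatives covered the normalisation, pseudocount, filter, probe set rule, array weights, spike-in sets, Gapdh gap, subsets of late days and each tumour left out.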

Additional observations from a re-analysis of the deposited data

Results flagged for a closer look

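In 11 of 174 groups, formed by 87 named genes in the day 6 and the late tumours, 1 tumour stood apart from the rest of its group by Dixon's test. Chance flags about 1 in 20 groups. The second day 6 tumour stood apart in 5 of them, with Klrk1 at 7.67, Scn7a at 8.47 and Sox10 at 8.30 as the lowest of its group, and Igfbp6 at 9.48 and Dpt at 11.76 as the highest. The first day 6 tumour was highest for Mx2, at 8.34. The late tumour of day 136 stood apart in 4, with Dpt at 9.00, Fn1 at 9.83 and Col11a1 at 4.72 as the lowest and Pfkl at 8.49 as the highest. The late tumour of day 163 was lowest for Lyve1, at 8.10.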

How the results depend on the processing

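Of 75 called named genes, 73 kept their direction under every alternative, the exceptions being Krt79 and Braf. Against days 6 and 9 together, 8580 probe sets were called when every probe set was tested. Array weights called 7135 genes, the spike-in block 1994, the Gapdh gap covariate 751, both of these together (chosen after seeing the data) 366, leaving out tumours of large gap 1994, late days 90 to 163 alone 2847 and a change of at least 1 on the log2 scale 594. Leaving out each tumour in turn gave 2848 (without the second day 9 tumour) to 5238 (without the third). Against day 6, the counts were 9016 with every probe set, 7342 with weights, 421 with the block, 523 with the covariate, 138 with both and 1588 without large gaps, and 3228 to 4982 leaving out each tumour. Against day 9, they were 1759 with every probe set, 4776 with weights, 385 with the 17 tumours alone, 620 with the block, 36 within the third spike-in set, 338 with the covariate, 92 with both and 330 without one series of title numbers (days 1 to 6). Leaving out each tumour gave 107 to 2517 there: 250 without the first day 9 tumour, 107 without the second, 2517 without the third and 1665 without the second day 121 tumour. Day 9 against day 6 gave 10 with arrays centred, 13 unnormalised, 74 with probe sets averaged, 1160 with every probe set, 1056 with weights, 2 with the 17 tumours alone, 35 with the covariate, 80 without large gaps and 1 with block and covariate. limma with the block called 0 there, with 1335 at an unadjusted p under 0.05, and leaving out each tumour gave 0 to 94.

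Signs turned for Krt79 without large gaps (-0.64) and for Braf with probe sets averaged (-0.028). Among genes not called, Dusp6 was 0.065 with the block, 0.033 within the third set and 0.080 with block and covariate, and Spred3 0.15 within the third set. Spry4 was -0.0081 unnormalised, -0.014 with weights, -0.0057 at days 90 to 163, -0.057 with probe sets averaged, -0.068 with the block, -0.16 with the covariate, -0.23 without large gaps, -0.22 with both terms and from -0.045 to 0.116 leaving out each tumour. Mitf was -0.31 with the covariate, -0.27 without large gaps and -0.39 with both terms. Sox10 was -0.087 with probe sets averaged, -0.027 with weights, -0.024 without large gaps, -0.35 without that title series and -0.032 at days 63 and 77. Pmel was -0.16 with the covariate, -0.24 without large gaps, -0.012 at days 90 to 163 and -0.050 with both terms. Dct was -0.12, -0.19 and -0.39 with the covariate, without large gaps and with both terms. Pdgfrb was 0.027 with the block and 0.20 within the third set. Igf1 was -0.098 with the block, -0.15 with the covariate and -0.83 with both terms. The cause was not tested. The block for day 6 rests on a single day 1 tumour that links its set to that of the late tumours. No paired analysis was possible because the numbering of tumours within a group comes only from accession order.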

Other observations

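A day 16 and a day 29 tumour, 1 each and in no comparison above, lay between the phases. Of 91 genes higher in all late tumours, the day 16 tumour was within the late range for 21, within the range of days 6 and 9 for 51 and outside both for 19. The day 29 tumour was within the late range for 45, within the earlier range for 24 and outside both for 22. Of 141 called genes lower in all late tumours, the day 16 tumour was within the late range for 20 and the earlier range for 79, and the day 29 tumour for 76 and 27. With 1 tumour a day there is no replicate check on these counts.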
